A study of Mus musculus with 6 samples.

Results

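The genes described here are 38 genes whose products join cells of skeletal muscle to the extracellular matrix or to other cells, or act in repair of the muscle membrane. They comprise 23 integrin subunits and 15 genes of the dystrophin-glycoprotein complex and of muscle membrane repair. They were taken by name from a fixed list that was chosen with earlier results of these data known. A gene was measured where at least 1 row of the array table was annotated to that symbol alone. All 38 were measured, out of 23152 genes in all, with 861 probe sets between them and between 4 and 64 probe sets per gene.

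Integrins are receptors made of an alpha and a beta subunit. The pair spans the cell membrane, binds laminin, collagen, fibronectin or a counter-receptor outside the cell, and couples to actin inside it through talin, kindlin and vinculin. The dystrophin-glycoprotein complex makes a parallel link: dystrophin binds actin and the membrane protein dystroglycan, dystroglycan binds laminin, and sarcoglycans, sarcospan, syntrophins and dystrobrevins complete the assembly. Loss of its members causes muscular dystrophies. In platelets, the G protein subunit Gα13, the product of Gna13, is known to bind the cytoplasmic tails of integrin beta subunits, and in many cells it activates RhoA, which acts on actin and cell adhesion.

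RNA was taken from the soleus, a slow hindlimb muscle, of 3 MKO and 3 WT male mice that were 18 weeks old and had fasted for 14 h. The MKO mice carried Ckmm-Cre and Gna13 flox/flox, and the WT mice carried Gna13 flox/flox without Cre, so floxed alleles were common to both groups. Ckmm-Cre is driven by the muscle creatine kinase promoter, which is active in muscle fibres, while fibroblasts, vessels and leukocytes of the same tissue lie outside its known range. Each mouse gave 1 Affymetrix Mouse Gene 2.0 ST array, and the labels name the replicates as biological.

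Values are log2 values normalised by robust multi-array averaging (RMA), and a gene's value is the mean of its probe sets. A difference is MKO minus WT on this scale, so a difference of −1 is a halved signal. Probe sets bind with unlike efficiency, so levels are compared between mice and not between genes. The median probe set lay between 4.87 and 4.95 on the 6 arrays. A principal component analysis put 32.8% of the variance on its leading axis, which placed MKO replicate 1 at 33.6 and the other arrays between −19.7 and 14.4. Counts and medians over the members are therefore also given without that array. For the pathway lists only the medians are given without it. Gna13, the targeted gene, was lower in MKO in its probe set 17257825, at 3.43, 4.25 and 4.33 in MKO mice, against 5.48, 6.23 and 6.16 in WT mice. In 3 of its 7 probe sets all MKO arrays were above all WT arrays, with differences of 0.65 (17257824), 0.51 (17257828) and 0.67 (17257829), and the mean over the 7 was 6.77 in MKO and 6.73 in WT. Which exon a probe set covers was not analysed here. Muscle fibre markers were bright on all arrays, with a mean over 10 genes of 10.61 to 10.69 in MKO mice and 10.65 to 10.69 in WT mice.

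No member passed the adjusted threshold of 0.05 in the limma fit over all genes. The same fit called 0% of 23152 genes, and at an unadjusted p under 0.05 it had 444 genes higher and 558 lower. The adjusted p was 0.9997 for every member named with one here. At an unadjusted p under 0.05, 3 members were lower in MKO (Itga5, Itga1 and Trim72) and 0 were higher, where 2.41% of all genes were lower and 1.92% higher by the same rule. Without MKO replicate 1 the counts were 4 lower and 1 higher, against 3.11% and 2.62% of all genes. In 7 members all MKO arrays were below all WT arrays, and in 0 they were all above, against 4.99% and 4.26% of all genes. After quantile normalization all MKO arrays were below in 4 members, against 5.11% of all genes. A re-implemented local pooled error test called 24 of all genes, and in simulated data of this comparison it also called 127 of 22952 unchanged genes. Each simulated gene took its own SD within groups as its true SD, so the count of 127 may not carry over to the real data. With 3 mice per group, exact permutation p-values for single genes have a minimum of 0.1 and are not given.

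The differences were small and mostly negative. Since the members were chosen with earlier results of these data known, their shares beside those of all genes are descriptions only. The members' mean was lower in MKO for 30 of 38 genes, where 53.4% of all genes were lower. Bright genes leaned further that way: 61.6% of genes above the median level were lower, and 24 of the 30 members above that level were. The median difference was −0.15 over the 23 integrins and −0.13 over the 15 other members, against −0.01 over all genes. After quantile normalization 27 of 38 members were lower, against 49.7% of all genes, with medians of −0.12 and −0.08. Without MKO replicate 1, 24 of 38 were lower, against 51.6% of all genes. The medians were then −0.10 and −0.06, against −0.007 over all genes. With quantile normalization besides, 22 of 38 were lower, against 49.97% of all genes.

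**Figure D1:**
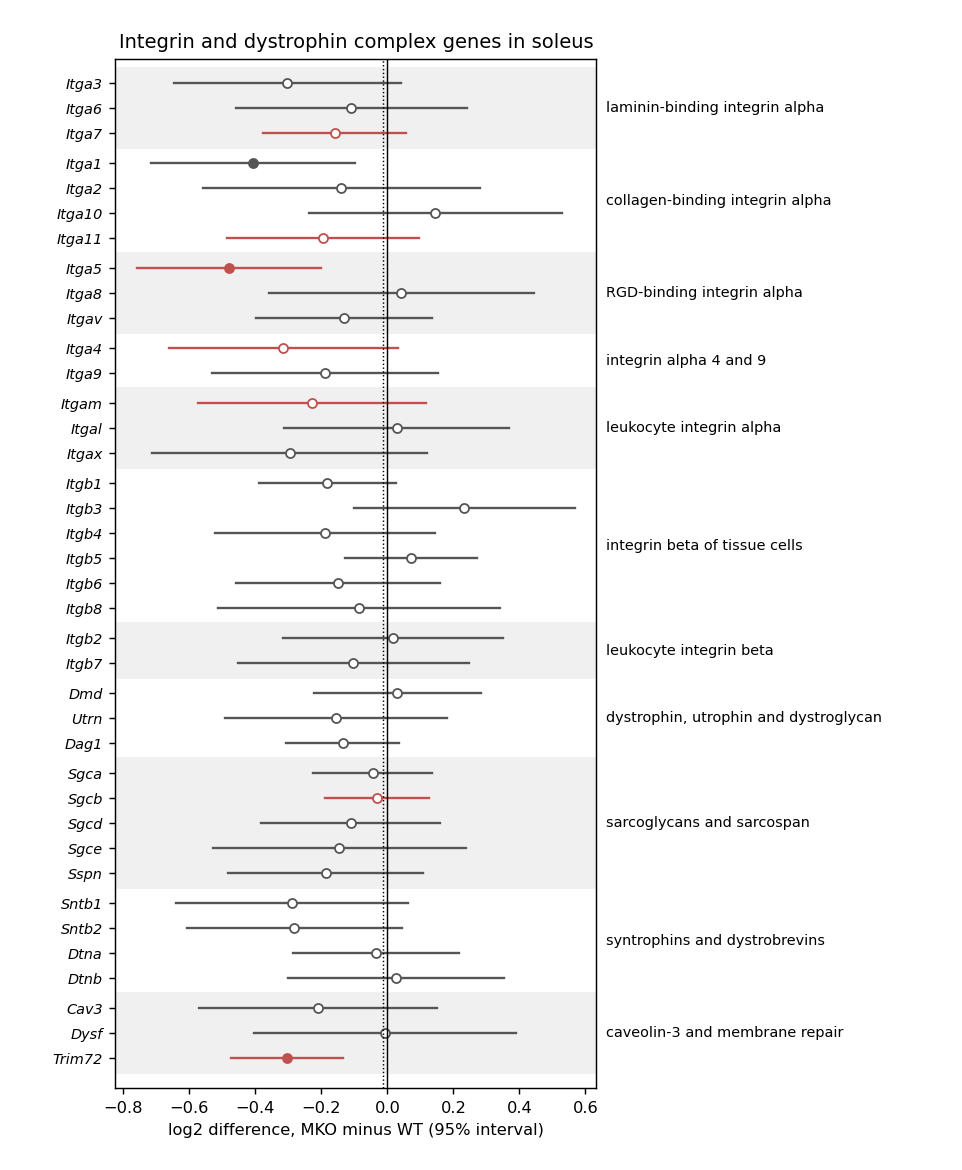
Difference between MKO and WT for each of the 38 genes, on the log2 scale, with its 95% interval from limma (3 mice per group). Filled points have an unadjusted p under 0.05, red marks genes whose MKO arrays all lie below the WT arrays, and the dotted line is the median of all genes at −0.01. Most points lie left of 0, and the intervals of Itga5, Itga1 and Trim72 do not reach it.

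Itga5 differed most among the integrins. It encodes the alpha subunit of the classical fibronectin receptor, which recognises the RGD sequence and is abundant on fibroblasts, endothelium and myoblasts. Its value was 6.27, 6.25 and 6.28 in MKO mice, against 6.75, 6.95 and 6.53 in WT mice. The MKO mice were close together and all below the lowest WT mouse, while the WT mice were spread. The difference was −0.48 (SE 0.13), a 1.39-fold lower value, with an unadjusted p of 0.00266 and an adjusted p of 0.9997 by limma. Of its 19 probe sets 16 were lower in MKO, and in 2 of them the groups did not overlap. The difference was −0.48 without MKO replicate 1 and −0.38 without WT replicate 2, which had the highest value. With bright probe sets only it was −0.34. Of the other RGD-binding alpha subunits, Itgav, which pairs with several beta subunits to bind vitronectin and latent TGF-beta, differed by −0.13 (SE 0.12), and Itga8, a subunit of smooth muscle and kidney, by 0.04 (SE 0.19). The differences between these subunits were not tested. In a whole muscle, fewer cells of a type and less RNA per cell cannot be told apart.

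Itga1 is the alpha subunit of a collagen receptor found on fibroblasts, pericytes and capillary endothelium. It stood at 6.48, 6.58 and 6.84 in MKO mice, against 7.17, 7.19 and 6.77 in WT mice. MKO replicate 3 lay above WT replicate 3, so the groups overlapped. The difference was −0.41 (SE 0.14), a 1.33-fold lower value, with an unadjusted p of 0.0140. Without WT replicate 1 or WT replicate 2 the unadjusted p was 0.0656 or 0.0636. Of 27 probe sets 22 were lower, 4 of them with groups apart. With bright probe sets only the difference of Itga1 was −0.28.

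Markers of cells that carry these receptors also varied between the mice. Of 11 fibroblast markers 10 were lower in MKO, where 53.4% of all genes and 61.6% of genes above the median level were lower. Their mean was 7.06, 7.50 and 7.44 in MKO mice, against 7.70, 7.63 and 7.34 in WT mice. Their median difference was −0.29, or −0.11 without MKO replicate 1. The endothelial markers were lower in 9 of 10 genes, with a mean of 6.58, 6.80 and 6.91 in MKO mice, against 6.95, 7.12 and 6.77 in WT mice. Single endothelial markers differed by between −0.73 and 0.02, with a median of −0.10, or −0.02 without MKO replicate 1. In both lists MKO replicate 1 was lowest and WT replicate 3 was below the other WT mice, and the groups overlapped. Smooth muscle and pericyte markers were lower in 6 of 8 genes, with a median of −0.08, or −0.10 without MKO replicate 1. Satellite cell markers were lower in 4 of 6 genes, with a median of −0.06, or 0.08 without MKO replicate 1. Itga1 was lowest in MKO replicate 1 among all mice and in replicate 3 among WT mice. Itga5 was lowest in replicate 3 among WT mice, and its MKO values spanned 6.25 to 6.28. The part of these cells in either difference was not tested.

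Trim72 was the member with the smallest p. It encodes MG53, a tripartite-motif protein of striated muscle that gathers vesicles at a torn sarcolemma and so patches it. Its value was 9.23, 9.15 and 9.22 in MKO mice, against 9.41, 9.56 and 9.54 in WT mice. The groups were well apart and each was tight, with an SD of 0.04 in MKO and 0.08 in WT. The difference was −0.30 (SE 0.08), a 1.23-fold lower value, with an unadjusted p of 0.00195 and an adjusted p of 0.9997. All 8 of its probe sets were lower in MKO, and in 6 of them the groups did not overlap. With each array left out in turn the difference lay between −0.35 and −0.28. In the same mice the mean of the fibre markers was 10.62, 10.61 and 10.69 in MKO mice, against 10.67, 10.65 and 10.69 in WT mice. Single fibre markers differed by between −0.23 (Des, the muscle intermediate filament) and 0.10 (Mb, myoglobin). Of the 10 fibre markers 1 was lower at an unadjusted limma p under 0.05, against 2.41% of all genes. In 1 of the 10 all MKO arrays were below all WT arrays, against 4.99% of all genes.

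**Figure D2:**
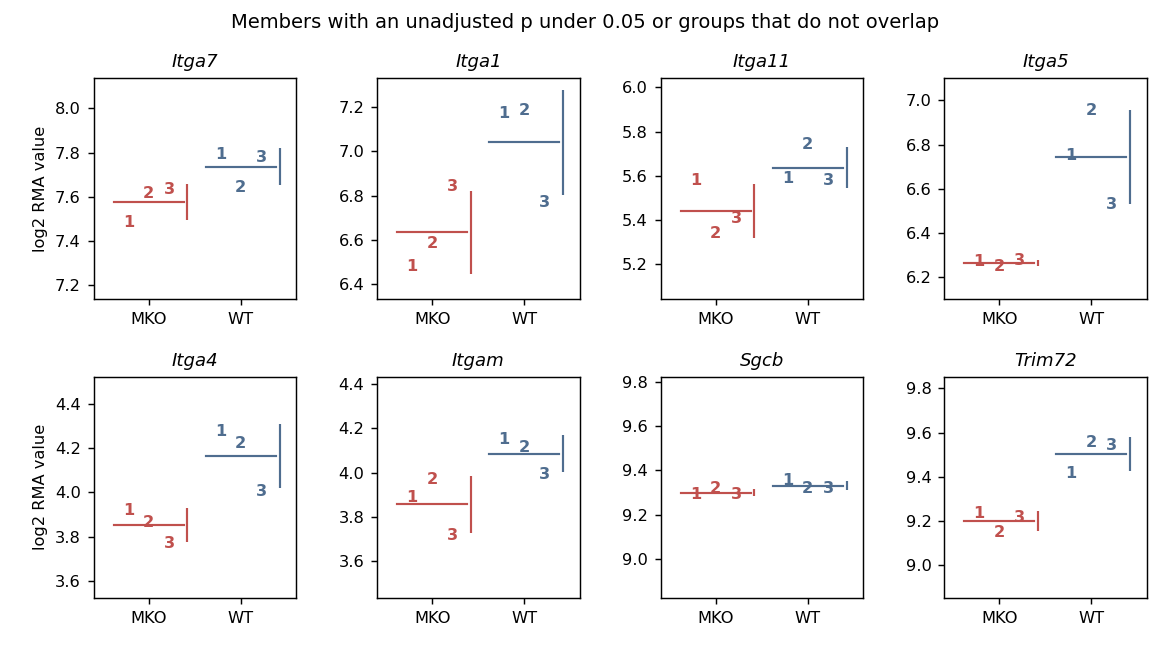
Log2 RMA value of each mouse for the 8 members with an unadjusted p under 0.05 or with groups that do not overlap, MKO left and WT right. Digits are replicate numbers, horizontal lines group means and vertical lines 1 SD, and every panel spans 1 log2 unit. Itga5 and Trim72 have the widest gaps between groups, Itga1 overlaps, and the Sgcb gap is the smallest.

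The promoters of these 3 genes are shown because these members had the smallest p-values. The sequences are from RefSeq (GRCm38.p6), run from 250 bases before to 50 after the annotated start, and are given 5′ to 3′ on the strand of the gene. Capitals mark CAGCTG, a form of the E-box to which MyoD-family factors bind and which is its own reverse complement. Other forms of the E-box were not marked or counted.
Itga5: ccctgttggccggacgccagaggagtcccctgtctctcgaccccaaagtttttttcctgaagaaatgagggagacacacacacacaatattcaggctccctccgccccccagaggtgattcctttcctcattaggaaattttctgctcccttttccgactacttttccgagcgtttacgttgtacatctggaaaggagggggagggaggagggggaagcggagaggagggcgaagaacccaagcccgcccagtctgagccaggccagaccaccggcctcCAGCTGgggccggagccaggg
Itga1: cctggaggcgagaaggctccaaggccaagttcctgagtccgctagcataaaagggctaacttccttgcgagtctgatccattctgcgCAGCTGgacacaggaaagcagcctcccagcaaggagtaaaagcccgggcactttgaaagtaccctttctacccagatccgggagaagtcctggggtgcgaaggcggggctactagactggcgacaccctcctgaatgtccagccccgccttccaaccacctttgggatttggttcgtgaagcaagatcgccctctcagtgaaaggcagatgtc
Trim72: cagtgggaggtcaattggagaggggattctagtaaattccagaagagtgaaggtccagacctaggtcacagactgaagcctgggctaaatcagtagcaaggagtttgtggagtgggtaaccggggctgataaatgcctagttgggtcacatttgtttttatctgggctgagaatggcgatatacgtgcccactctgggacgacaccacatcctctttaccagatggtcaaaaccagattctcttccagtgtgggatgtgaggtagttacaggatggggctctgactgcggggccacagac
They lie at chr15:103366742-103367041 on the minus strand for Itga5, chr13:115101915-115102214 on the minus strand for Itga1 and chr7:128004128-128004427 on the plus strand for Trim72. Itga5 and Itga1 hold 1 match each to CAGCTG, at positions 29 and −163 from the start, and the Trim72 window holds no match to this form. CAGCTG occurs in 16.3% of 32851 promoters of this length. Promoters were listed for 28 of the 38 members, in 37 windows. Of these 37 windows 7 hold it, those of Cav3, Itga1, Itga4, Itga5, Itga9, Itgax and Itgb5. The CArG box, bound by serum response factor and also its own reverse complement, occurs in 1.63% of promoters. Among the members it occurs in 2 of the 37 windows, those of Dmd and Itgb6.

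The laminin-binding alpha subunits were lower in MKO in all 3 cases, with small differences. Itga7, the main laminin receptor subunit of mature muscle fibres, whose loss causes a myopathy, was 7.48, 7.61 and 7.64 in MKO mice, against 7.79, 7.64 and 7.78 in WT mice. The groups did not overlap, but the highest MKO and the lowest WT mouse were almost level. The difference was −0.16 (SE 0.10). Of its 24 probe sets 17 were lower, and 1 dim probe set, 17238624, stood at 1.97 in MKO against 3.80 in WT, a difference of −1.83. Without that probe set the gene's difference was −0.09. Itga3 and Itga6, laminin receptor subunits of epithelia, vessels and muscle precursors, differed by −0.30 (SE 0.16) and −0.11 (SE 0.16).

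Among the other collagen receptors, Itga11, which is typical of fibroblasts, was 5.58, 5.34 and 5.41 in MKO mice, against 5.59, 5.74 and 5.58 in WT mice. The groups missed each other narrowly, and the difference was −0.19 (SE 0.13), or −0.09 with the median of probe sets and −0.08 with bright probe sets only. Itga2, the collagen receptor subunit of platelets and epithelia, differed by −0.14 (SE 0.19), or 0.03 with the median of probe sets. Itga10, of cartilage, differed by 0.15 (SE 0.18) at a level below the median gene.

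Itga4, a subunit shared by leukocytes and developing muscle that binds VCAM-1, was dim, at 3.92, 3.86 and 3.77 in MKO mice, against 4.28, 4.22 and 4.002 in WT mice. The groups did not overlap, and the difference was −0.32 (SE 0.16), with 22 of 30 probe sets lower. With bright probe sets only it was −0.14. Its relative Itga9 differed by −0.19 (SE 0.16). Rows of the table annotated to Itga4 or Itgb4 together with an overlapping gene, 5 in all, were not used.

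Of the leukocyte integrins, the alpha subunits and Itgb7 were below the level of the median gene, and Itgb2 was above it. Itgam, the alpha subunit of Mac-1 on myeloid cells, was 3.89, 3.97 and 3.72 in MKO mice, against 4.15, 4.11 and 3.99 in WT mice. The gap between groups was narrow, and the difference of −0.23 (SE 0.16) became −0.01 when the median of the probe sets replaced their mean. Itgax, the CD11c subunit of dendritic cells and macrophages, differed by −0.30 (SE 0.19), and Itgal, the LFA-1 subunit of lymphocytes, by 0.03 (SE 0.16). Their partner Itgb2, the common beta subunit of leukocytes, differed by 0.02 (SE 0.15, 95% interval −0.32 to 0.35), and Itgb7, of gut-homing lymphocytes, differed by −0.10 (SE 0.16). Macrophage markers were lower in 10 of 11 genes, where 53.4% of all genes were lower. Their mean was 4.66 to 4.85 in MKO mice and 4.84 to 5.08 in WT mice. Single macrophage markers differed by between −0.82 (Cd68) and 0.07 (Cd163), with a median of −0.13, or −0.06 without MKO replicate 1. Lymphocyte markers were higher in 7 of 8 genes, against 10778 of 23152 over all genes. Their mean was 3.57 to 3.75 in MKO mice and 3.40 to 3.55 in WT mice. These groups did not overlap, but the gap was narrow and the markers were dim. The median difference of the lymphocyte markers was 0.11, or 0.06 without MKO replicate 1. Neutrophil markers had a mean of 3.12 to 3.59 in MKO mice and 3.09 to 3.19 in WT mice. The part of these cells in the integrin values was not tested.

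In 0 of the 8 beta subunits did the groups lie apart. Itgb1 encodes the partner of most of the alpha subunits above and is needed for myoblast fusion and muscle attachment. It was 9.03, 9.24 and 9.34 in MKO mice, against 9.49, 9.40 and 9.26 in WT mice, a difference of −0.18 (SE 0.10). The groups overlapped through MKO replicate 3 and WT replicate 3. Of 19 probe sets 15 were lower, and without MKO replicate 1 the difference was −0.10. Itgb3, the platelet and vascular beta subunit that pairs with Itgav, had the largest positive difference of all members, 0.23 (SE 0.15), with a mean of 4.93 ± 0.19 in MKO and 4.70 ± 0.10 in WT (SD, n = 3 each). Itgb5, another partner of Itgav, differed by 0.07 (SE 0.09). Itgb4, the hemidesmosome subunit, differed by −0.19 (SE 0.15), Itgb6, an epithelial subunit, by −0.15 (SE 0.14), and Itgb8, which activates latent TGF-beta, by −0.09 (SE 0.20).

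Dystrophin, utrophin and dystroglycan had overlapping groups. Dmd, the actin-binding rod of the complex, was 8.62, 9.06 and 9.11 in MKO mice, against 8.88, 8.95 and 8.87 in WT mice. The WT mice were tight, with an SD of 0.04, and the MKO mice lay on either side of them, with an SD of 0.27. The difference was 0.03 (SE 0.12, 95% interval −0.22 to 0.28), and 34 of 61 probe sets were higher. Without MKO replicate 1 it was 0.18 with an unadjusted p of 0.0440, and without MKO replicate 3 it was −0.06.

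Utrn, the utrophin gene, encodes a dystrophin homologue that sits at the neuromuscular junction of adult fibres. It was 6.50, 7.08 and 7.17 in MKO mice, against 7.11, 7.07 and 7.03 in WT mice. One mouse, MKO replicate 1, was low, and the other 5 spanned a narrow range. The difference of −0.16 (SE 0.16) was 0.05 without that mouse. Dag1, the gene of dystroglycan, was 9.34, 9.31 and 9.42 in MKO mice, against 9.49, 9.41 and 9.57 in WT mice. All 7 of its probe sets were lower in MKO, the groups overlapped by a small margin, and the difference was −0.13 (SE 0.08).

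The sarcoglycans form a subcomplex that is lost in some limb-girdle muscular dystrophies. Sgca was 8.68, 8.62 and 8.68 in MKO mice, against 8.73, 8.74 and 8.64 in WT mice, a difference of −0.04 (SE 0.08, 95% interval −0.22 to 0.14). Sgcb was 9.29, 9.32 and 9.29 in MKO mice, against 9.36, 9.32 and 9.32 in WT mice. The Sgcb groups did not overlap, but the difference was −0.03 (SE 0.07), with 2 of its 4 probe sets lower and 2 higher, and it was 0.01 after quantile normalization. Sgcd differed by −0.11 (SE 0.13) and by −0.68 when the median of its 13 probe sets was used, of which 10 were lower. Sgce, the epsilon form found also outside muscle, differed by −0.15 (SE 0.18), and Sspn, the tetraspan protein sarcospan, by −0.19 (SE 0.14). Of the 8 probe sets of Sspn 4 were lower and 4 higher, and without the one of largest difference Sspn was −0.07. Sspn was 5.68, 6.08 and 6.01 in MKO mice, against 6.15, 6.07 and 6.11 in WT mice.

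Of the cytoplasmic adaptors, both beta-syntrophins were lower in MKO. Sntb1 had a difference of −0.29 (SE 0.16) with a mean of 4.92 ± 0.13 in MKO and 5.21 ± 0.26 in WT, and Sntb2 of −0.28 (SE 0.15) with a mean of 5.64 ± 0.24 in MKO and 5.93 ± 0.14 in WT (SD, n = 3 each). The groups overlapped in both. Without the probe set of largest difference, Sntb1 was −0.23 and Sntb2 −0.16. Sntb2 was 5.37, 5.84 and 5.72 in MKO mice, against 5.94, 6.06 and 5.78 in WT mice. The dystrobrevins, which bind dystrophin and syntrophins, had differences near 0: −0.03 (SE 0.12) for Dtna and 0.03 (SE 0.15) for Dtnb. With the median of probe sets they were 0.12 and 0.23.

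The remaining members act with Trim72 in membrane repair, and their groups overlapped. Cav3 encodes the muscle caveolin that binds MG53 and dysferlin. It was 5.82, 6.09 and 6.34 in MKO mice, against 6.16, 6.60 and 6.11 in WT mice, with overlapping groups and a difference of −0.21 (SE 0.17) that was −0.08 without MKO replicate 1 and −0.05 without WT replicate 2. Dysf, the gene of dysferlin, a calcium-dependent protein of membrane resealing, was 6.57, 6.89 and 6.93 in MKO mice, against 7.003, 7.09 and 6.32 in WT mice. WT replicate 3 was the lowest of the 6, and the difference of −0.01 (SE 0.18, 95% interval −0.40 to 0.39) took either sign as single mice were left out. Differences between Trim72 and these genes were not tested. Trim72, Itgam and Itgax follow one another among the protein-coding genes of chromosome 7 in RefSeq GRCm38.p6. Their differences were −0.30, −0.23 and −0.30, and those of the genes on either side were 0.02 for Pycard and 0.11 for Itgad. With the median of probe sets Trim72 was −0.32, Itgam −0.01, Itgax −0.37 and Itgad −0.36. Itgam and Itgax were below the level of the median gene, and the Itgax groups overlapped. Differences between these genes were not tested.

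Single probe sets varied more than the gene means. Of the 861 probe sets 528 (61.3%) were lower in MKO, against 52.1% of all probe sets with 1 gene. MKO lay wholly below WT in 62 of them (7.20%) and wholly above in 22 (2.56%), against 5.21% and 4.69% of all. By limma on every row, 0 member probe sets passed the adjusted threshold, and their smallest adjusted p was 0.977. A difference of 1 or more with groups apart was seen in 22 probe sets of 13 genes, 16 lower and 6 higher, and 11 of those genes were integrins. The largest were 17483619 of Itgax, at 2.09 in MKO against 4.32 in WT, and 17296371 of Itga2, at 2.52 in MKO against 4.72 in WT. The 8 probe sets of Trim72 differed by −0.49 to −0.12.

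**Figure D3:**
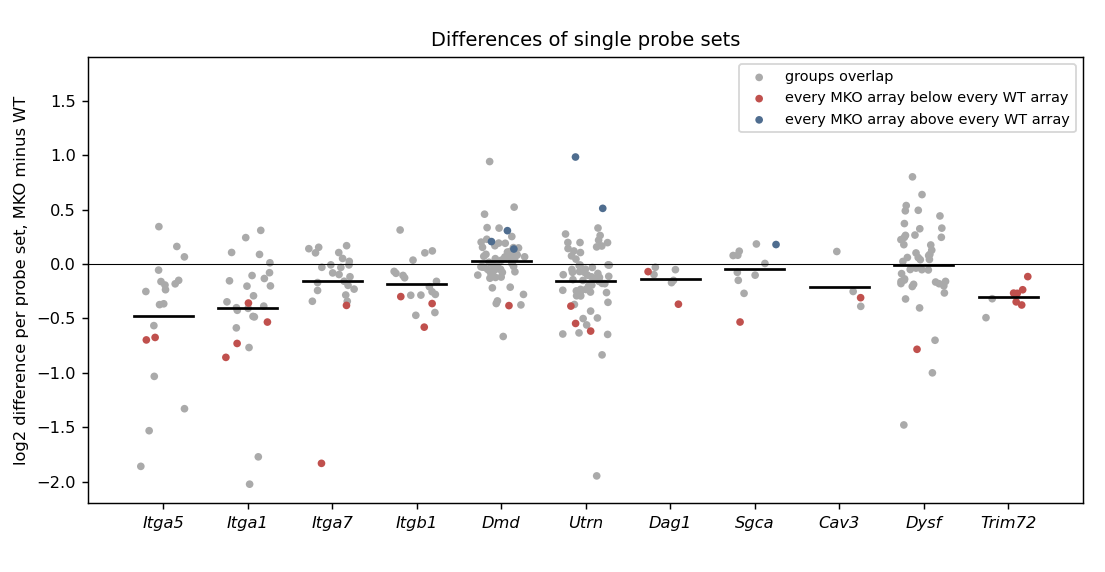
Difference between MKO and WT of every probe set of selected members on the log2 scale, with the gene's mean as a bar. Trim72 and Dag1 have all their probe sets below 0, Itga5 has 16 of 19 and Itga1 22 of 27 below 0, and those of Dmd and Dysf lie on both sides.

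Genes that work with the members were also lower more often than higher in all lists but that of other integrins, over all 6 arrays. These lists too were chosen with earlier results of these data known. So were 53.4% of all genes and 61.6% of genes above the median level. The share lower was 75.0% for adaptors and 70.0% for other dystrophin complex genes. It was 69.2% for glycosylation enzymes and 70.0% for membrane repair and caveolae. Of 102 further genes in several lists 94 were measured, and 0 of them passed the adjusted threshold. The ligand list of laminins, collagen IV, nidogens and related proteins was lower in 19 of 20 genes, where 53.4% of all genes were lower, with a median of −0.19. In 3 of them all MKO arrays were below all WT arrays, against 4.99% of all genes. Fn1, fibronectin, the ligand of the receptor that Itga5 forms, was 8.15, 8.78 and 8.49 in MKO mice, against 8.81, 8.80 and 8.55 in WT mice, a difference of −0.25 (SE 0.14). Its groups overlapped through MKO replicate 2, its difference was −0.40 to −0.08 without single arrays, and the list's median was −0.09 without MKO replicate 1. Lama3, a laminin chain of epithelia, differed by −0.27 (SE 0.15) with groups apart, and Col4a1, a basement membrane collagen, differed by −0.23 (SE 0.13) with overlap.

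Adaptors between integrins and actin were lower in 18 of 24 genes, with a median of −0.11 that was −0.06 without MKO replicate 1. At an unadjusted p under 0.05, 2 of them were lower, against 2.41% of all genes. Flnc, the muscle filamin that binds both sarcoglycans and integrins, was 10.77, 10.87 and 10.73 in MKO mice, against 10.91, 11.12 and 10.97 in WT mice, a difference of −0.21 (SE 0.07) with an unadjusted limma p of 0.0127 and an adjusted p of 0.9997. Vcl, vinculin, which ties talin to actin, was 7.61, 7.76 and 7.95 in MKO mice, against 7.96, 8.29 and 7.95 in WT mice, a difference of −0.29 (SE 0.12) with an unadjusted limma p of 0.0336 and an adjusted p of 0.9997. In both genes the groups did not overlap, though in Vcl the nearest mice were level to 2 decimals and the difference was −0.38 to −0.18 without single arrays. Actn1, an actin crosslinker of focal adhesions, differed by −0.23 (SE 0.13), or by 0.20 with the median of its probe sets.

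Other genes of the dystrophin complex were lower in 7 of 10 measured cases, with a median of −0.07, or −0.14 without MKO replicate 1. Sync, syncoilin, an intermediate filament protein that binds alpha-dystrobrevin, was 8.38, 8.22 and 8.24 in MKO mice, against 8.53, 8.46 and 8.57 in WT mice. Its groups lay apart, with a difference of −0.24 (SE 0.09), an unadjusted limma p of 0.0208 and an adjusted p of 0.9997. Sntg2, a gamma-syntrophin, was dim and higher by 0.34 (SE 0.16), and Ank2, an ankyrin that helps place dystrophin, differed by −0.25 (SE 0.14), or −0.39 to −0.10 without single arrays.

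Enzymes that glycosylate dystroglycan were lower in 9 of 13 genes, with a median of −0.06 that turned to 0.03 without MKO replicate 1. Gtdc2, now named Pomgnt2, was −0.24 (SE 0.15), Dpm2 −0.18 (SE 0.15) and Tmem5 0.22 (SE 0.19). Dpm2 was −0.0029 with the median of probe sets, and Tmem5 lay between 0.0031 and 0.42 without single arrays. Further genes of membrane repair and caveolae were lower in 14 of 20, with a median of −0.10 that was −0.02 without MKO replicate 1. Among these, Anxa5, an annexin that binds exposed phospholipid, was −0.24 (SE 0.12), Ehd2, a caveolar ATPase, −0.29 (SE 0.16) and Bves, a popeye-domain membrane protein, −0.18 (SE 0.10). Without single arrays they lay between −0.35 and −0.13 for Anxa5, −0.44 and −0.09 for Ehd2, and −0.27 and −0.10 for Bves. The remaining integrins and integrin-binding proteins were split, 3 lower and 4 higher, with a median of 0.01 that turned to −0.04 without MKO replicate 1. Of these Itga2b, the platelet alpha subunit, differed by −0.21 (SE 0.17), Itgb1bp1, which binds the tail of Itgb1, by 0.10 (SE 0.14) and Itgad, another leukocyte alpha subunit, by 0.11 (SE 0.18). Without single arrays Itgad lay between −0.04 and 0.25, Itga2b between −0.29 and −0.09 and Itgb1bp1 between 0.05 and 0.15.

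The array that stood apart also had low values for many members. MKO replicate 1 had the lowest value of all 6 mice in 17 of 38 members (44.7%), and in 24.0% of all genes. Relative to the WT mean, the average over the 15 non-integrin members was −0.27, −0.08 and −0.02 in the 3 MKO mice, against 0.01, 0.06 and −0.07 in the 3 WT mice. For the 23 integrins it was −0.17, −0.16 and −0.07 in MKO mice, against 0.02, 0.05 and −0.08 in WT mice. In both lists MKO replicate 3 was above WT replicate 3, so the groups overlapped. In other lists MKO replicate 1 was the highest array, at 0.15 for the other integrins, 0.44 for neutrophil markers and 0.27 for lymphocyte markers.

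**Figure D4:**
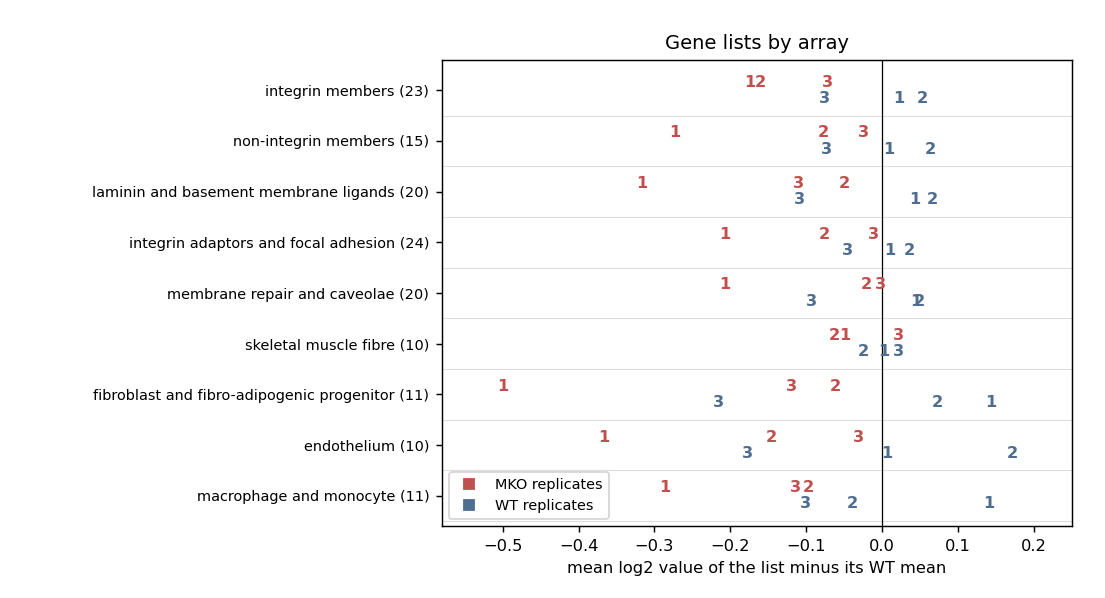
Mean log2 value of the integrin and non-integrin members, the ligand, adaptor and membrane repair lists, and the fibre, fibroblast, endothelial and macrophage markers in each mouse minus the mean of the WT mice (number of genes in brackets), with MKO above WT in each row and digits for replicate numbers. MKO replicate 1 is the leftmost array in every list drawn but the fibre markers, with the fibroblast markers at −0.50, and WT replicate 3 lies left of the other WT mice in all but the fibre markers.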

How the data were processed

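RNA of 6 soleus muscles, 3 MKO and 3 WT, was measured on Affymetrix Mouse Gene 2.0 ST arrays. The deposited table holds log2 values that the authors made with RMA in Affymetrix Expression Console, per the submitters' processing notes. It has 269751 probe sets, of which 233753 carry 1 gene symbol; those were averaged into 23152 genes. Arrays have no read depth, and the number of arrays limits the precision. MKO was compared with WT by limma 3.58.1 (lmFit, eBayes with a variance trend, two-sided) in R 4.3.3, with Benjamini-Hochberg adjustment over all genes at a threshold of 0.05. The fit was tested on simulated data with 200 changed genes. Figures were drawn with matplotlib 3.10.9 in Python 3.11.15.

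Alternatives were fits without the trend, with robust moderation, with replicate numbers as a block, after quantile normalization or median centring, with the median of probe sets, on genes above the median level, on bright probe sets, by a re-implemented local pooled error test, and without each array. Quantile normalization without MKO replicate 1 was added after the data were seen.

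Values by mouse are given for members at an unadjusted p under 0.05, members whose groups do not overlap, and the core genes Itga7, Itgb1, Dmd, Utrn, Dag1, Sgca, Cav3, Dysf and Trim72. A probe set qualifies for naming at a difference of 1 or more with groups apart, and the text names the largest. In each pathway list up to 3 genes of smallest p are named, with values by mouse added for 4 of them after they were seen. The members and lists were chosen with earlier results of these data known. Of 102 pathway entries 91 matched by symbol and 3 by synonym; of 96 marker entries 90 and 2.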

Additional observations from a re-analysis of the deposited data

How the results depend on the processing

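Itga5 and Trim72 kept their direction and an unadjusted p under 0.05 in 16 of 16 alternatives with a p, and Itga1 in 14 of 16; it lost that p without WT replicate 1 or 2. The lowest adjusted p over the alternatives was 0.579 for Itga5, 0.524 for Trim72 and 0.303 for Itga1, the last from the local pooled error test, which called 24 genes and also unchanged genes in simulated data. Without single arrays, 0 to 1 genes passed the adjusted threshold, 0 to 1 members were higher (1 without MKO replicate 1, and 1 with quantile normalization besides), 2 to 6 were lower (1.70% to 4.21% of all genes), and 9 to 16 had groups apart (15.9% to 22.7% of all genes, against 9.25% with 6 arrays). With the median of probe sets 5 members were lower (2.49% of all genes) and 4 had groups apart (9.36%), and 4 were apart after quantile normalization (10.4%) and 4 after median centring (8.96%). The integrin median was −0.086 with the median of probe sets, −0.065 with bright probe sets and −0.074 with quantile normalization without MKO replicate 1. Median centring turned the count of all genes at an unadjusted p under 0.05 to 545 higher and 354 lower, against 444 and 558. Small differences changed sign. Dmd was −0.055 with the median of probe sets and −0.060 to 0.18 without single arrays (−0.034 without MKO replicate 2). Utrn was 0.0084 by the local pooled error test, −0.28 to 0.051 without single arrays, and 0.036 with quantile normalization without MKO replicate 1. Sgcb was 0.012 after quantile normalization and 0.053 with the median of probe sets. Dysf was 0.030 after quantile normalization, 0.017 after median centring, 0.068 with the median of probe sets, 0.031 with bright probe sets, −0.25 to 0.13 without single arrays (0.11 without MKO replicate 1, 0.093 without WT replicate 1), and 0.087 with quantile normalization without MKO replicate 1. The cause was not tested. Same-numbered mice had deviations correlated at −0.09, 0.09 and −0.24, so the numbers were not taken as pairs; with the replicate block 0 genes passed, 3 members were lower and 0 higher. The number of arrays limits what can be seen.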
